A study of Homo sapiens with 7 samples.

Results

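This report covers 52 genes for heat shock proteins and their co-chaperones in MDA-MB 231, an established human line from a triple-negative breast cancer. They were taken by symbol from a list of HSP70, HSP110, small HSP, chaperonin, HSP90, heat shock factor, J-domain, BAG and HSP90 co-chaperone genes. The rule itself uses no measured value, but the members were chosen with earlier results of these data known. Each of the 52 had 1 row among the 60675 genes of the count table, with HSPB11 listed under its current symbol IFT25. The siCTL group (n = 3 libraries, labelled DEPDC1 WT) received a control siRNA and the siDEPDC1 group (n = 4 libraries, labelled DEPDC1 KD) an siRNA against DEPDC1. In both, the siRNA was delivered from a 20 µM stock with Lipofectamine RNAiMAX, the medium was changed after 8 h and RNA was taken 2 days after transfection. The sources used here give neither the siRNA sequence nor whether it was a single duplex or a pool.

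Many heat shock proteins are chaperones that bind unfolded or partly folded proteins and use ATP to fold, hold or hand them on. HSP70 works in a cycle in which J-domain proteins deliver the client and stimulate ATP hydrolysis, and exchange factors of the HSP110 and BAG families release the nucleotide. STIP1 passes clients from HSP70 to HSP90, which matures kinases and steroid receptors with its own co-chaperones, and the ring-shaped chaperonins fold enclosed proteins. The transcription factor HSF1 raises many of these genes when unfolded proteins accumulate.

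DEPDC1, the siRNA target, was at 114, 119 and 120.3 CPM in the siCTL libraries. In the siDEPDC1 libraries it was at 15.3, 12.7, 13.4 and 11.9 CPM, so that 11.3% of the siCTL mean was left. CPM are counts scaled to library size after adjustment by the TMM factors of edgeR. Library totals ran from 7690583 to 15360409 counts. VIM (mean 3713 CPM in siCTL) and CD44 (403 CPM) were high and ESR1 and PGR were below 1 CPM in every library. The summed level of 10 markers of leukocytes, endothelium, fibroblasts, epithelial cells and liver came to 39.6 to 45.5 CPM in siCTL and 51.6 to 59.6 CPM in siDEPDC1. By group mean, COL1A1 went from 12.9 to 30.2 CPM, CD14 from 2.06 to 3.25 CPM and EPCAM from 10.4 to 11.6 CPM. PECAM1 went from 12.9 to 11.3 CPM and PTPRC from 0.87 to 0.28 CPM. DCN was at 0 in all libraries and PTPRC at 1.39 CPM or less. Without COL1A1 the sum was 27.6 to 33.3 CPM in siCTL and 24.4 to 27.6 CPM in siDEPDC1. KRT5, a basal keratin, had 84 and 77 counts in siCTL replicates 1 and 2, in that order, and 0 counts in the other 5 libraries. The part of these markers in the results was not tested, but the counts of calls are also given without the 2 libraries that hold KRT5. No label ties the replicates to independent cultures. The p-values therefore rest on library-to-library spread, part or all of which may be technical. In bulk RNA, fewer cells of a kind and less RNA per cell cannot be told apart.

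The heat shock genes changed in both directions after DEPDC1 siRNA. Of 51 tested members, 8 were lower and 12 higher, or 39.2% (quasi-likelihood test of edgeR with p adjusted by Benjamini-Hochberg, threshold 0.05), against a background of 34.4% of all 16583 tested genes, of which 17.9% were lower and 16.5% higher. In this fit the share called among the members was thus near that of all genes. Their median log2 fold change was 0.013, against 0.00094 over all tested genes, and the median absolute change was 0.14 against 0.19. No member reached a 2-fold change in this fit. HSPA13 passed it in 5 of the alternative analyses (log2 fold change down to -1.03). HSPA2 passed it in 1, the fit with 1 control library (1.19). The values of the groups did not overlap in 22 members (43.1%), against 37.3% of all tested genes. Without the 2 siCTL libraries that hold KRT5, which leaves 1 control library assumed to vary like the others, 5 members were lower and 8 higher, against 18.5% of all genes called. HSPA13, BAG2, HSPE1 and DNAJA2 kept their falls there, and DNAJB14, not called with all libraries, was the other lower member (-0.36, edgeR adjusted p = 0.012). DNAJA4, a cytosolic J-domain gene, had 1 to 4 counts in each library and was not tested.

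Of the 3 most abundant members, HSPA8 fell and HSP90AB1 and HSP90AA1 did not pass the test. HSP90AB1, the constitutive HSP90, had the highest level per kilobase of exons, 715 CPM per kilobase in siCTL. HSPA8, the constitutive HSP70 (HSC70), followed at 323 CPM per kilobase and HSP90AA1, the inducible HSP90, at 322. These 3 genes together held 49.7% of the member counts in siCTL. All 52 genes took 1.07% of the counts of each siCTL library and 1.06% ± 0.038 (SD, n = 4) of those of siDEPDC1, which lie on both sides of siCTL.

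**Figure D1:**
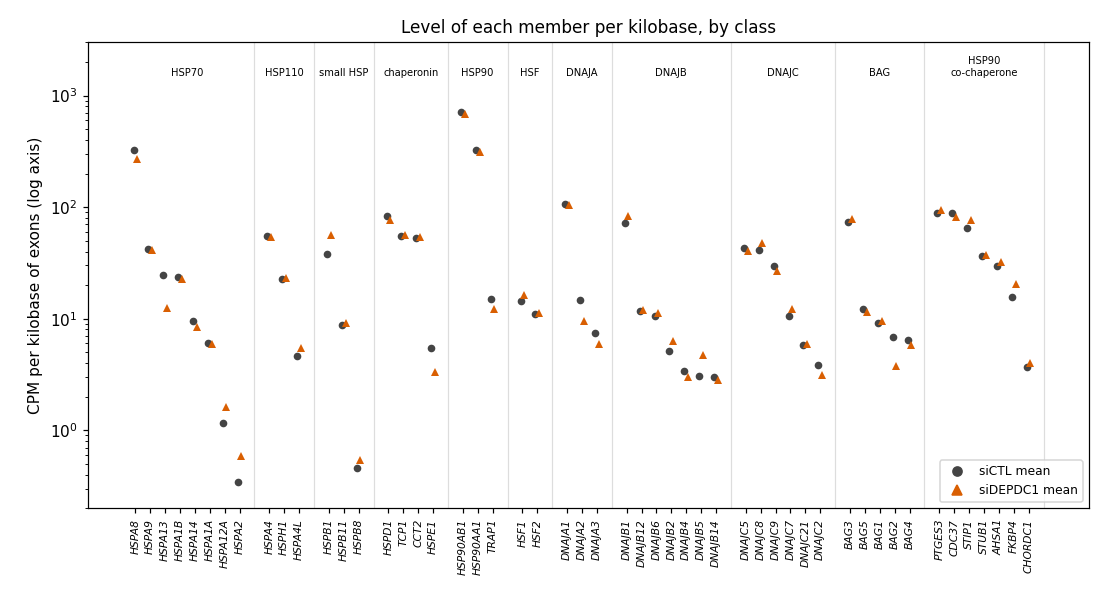
Mean level of each of the 51 tested members in siCTL (circles) and siDEPDC1 (triangles), in CPM per kilobase of annotated exons on a log axis, grouped by class and ordered by the siCTL level within it. Levels span from 0.341 (HSPA2) to 715 (HSP90AB1) CPM per kilobase in siCTL, and the groups lie close together for most members.

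**Figure D2:**
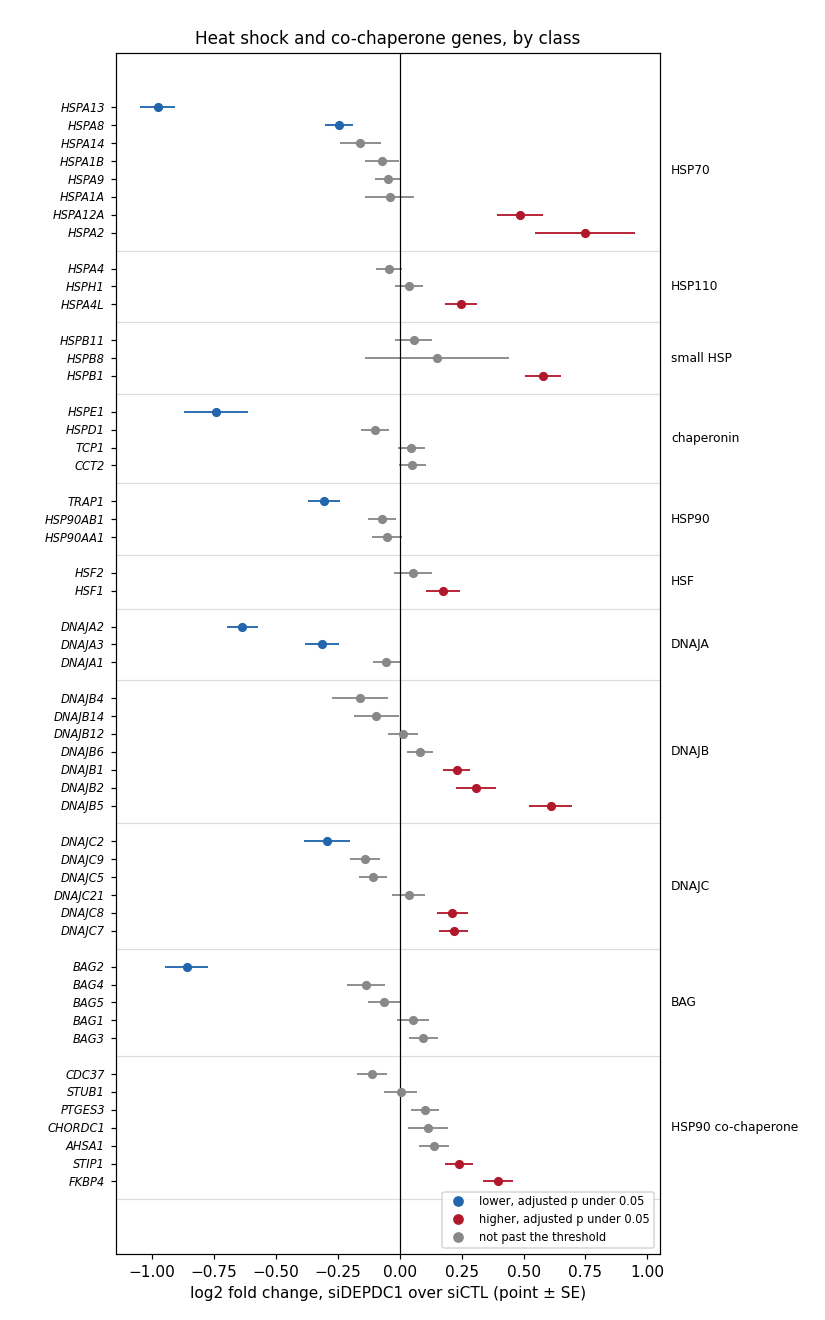
Log2 fold change of each tested member, siDEPDC1 over siCTL, with the standard error as a bar, grouped by class. Blue marks the 8 members that were lower, red the 12 that were higher and grey the 31 that did not pass the threshold. HSPA13 at -0.98 and HSPA2 at 0.75 are the extremes.

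Among HSP70 genes, the changes went both ways. HSPA13 (ENSG00000155304; GRCh38 chromosome 21, 14371115 to 14383484, minus strand), a microsomal HSP70 relative also known as STCH, was at 98.6, 104 and 106 CPM in siCTL and at 58.5, 56.2, 47.7 and 45.4 CPM in siDEPDC1. Every siDEPDC1 library was below every siCTL library, and the fall was the largest of the members (log2 fold change -0.98 ± 0.070 SE, edgeR adjusted p = 1.8e-13). HSPA8 (ENSG00000109971; chromosome 11, 123057489 to 123063230, minus strand) was at 1599, 1562 and 1541 CPM in siCTL and at 1260.1, 1385, 1378 and 1267 CPM in siDEPDC1. The groups did not overlap, and the fall was 1.19-fold (-0.25 ± 0.057, edgeR adjusted p = 0.00086). HSPA8 lost its call only without both KRT5 libraries (-0.22, edgeR adjusted p = 0.10).

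HSPA2, an HSP70 best known from the testis, rose from 2.14, 2.30 and 1.48 CPM to 3.33, 3.24, 3.52 and 3.47 CPM (0.75 ± 0.20, edgeR adjusted p = 0.0038). It was the lowest of the tested members per kilobase in siCTL, and the groups did not overlap. The counts of HSPA2 were only 29, 35 and 17 in siCTL and 34, 44, 27 and 39 in siDEPDC1. Without both KRT5 libraries its log2 fold change was 1.19, which rests on 1 control library with 17 counts. HSPA12A, a distant HSP70 relative, rose from 13.5, 13.3 and 14.4 CPM to 21.2, 17.8, 18.2 and 19.6 CPM (0.49 ± 0.094, edgeR adjusted p = 0.00010), again with no overlap. The stress-inducible HSP70 genes did not pass the test. HSPA1B was at 56.3, 58.5 and 63.8 CPM in siCTL and 50.3, 58.6, 59.9 and 57.7 CPM in siDEPDC1 (edgeR adjusted p = 0.45), and HSPA1A at 14.9 ± 1.12 and 14.6 ± 1.31 CPM (SD; edgeR adjusted p = 0.78). Their coding sequences are near-identical, so the counting may have lost or split their reads, and the 3.92 times higher level of HSPA1B per kilobase in siCTL is uncertain for the same reason. A same-strand transcript also shares 36.5% of the annotated HSPA1B exon bases. Summed to 1 row, HSPA1A and HSPA1B were at 74.5 ± 3.36 and 71.2 ± 5.51 CPM (log2 fold change -0.065 ± 0.065, edgeR adjusted p = 0.47). HSPA9, the mitochondrial HSP70, was at 349 ± 3.24 and 337 ± 13.5 CPM (edgeR adjusted p = 0.52). HSPA14, a ribosome-associated relative, was lower in every siDEPDC1 library than in any of siCTL, 22.5 ± 2.02 against 25.1 ± 0.752 CPM, but did not pass the test (-0.16 ± 0.083, edgeR adjusted p = 0.14).

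The exchange factors of HSP70 held the next largest fall after HSPA13. BAG2 (ENSG00000112208; chromosome 6, 57172326 to 57189833, plus strand), an exchange factor that also inhibits the ubiquitin ligase CHIP, was at 44.1, 45.2 and 46.0 CPM in siCTL and at 27.9, 23.3, 29.3 and 20.0 CPM in siDEPDC1. All siDEPDC1 libraries were below siCTL (-0.86 ± 0.087, edgeR adjusted p = 1.0e-09). RAB23, on the opposite strand, covers 42.7% of the annotated BAG2 exon bases, and the sources used here do not state whether reads were counted by strand. RAB23 itself did not pass the test (0.091, edgeR adjusted p = 0.39). The other BAG genes did not pass it: BAG3, the exchange factor of selective autophagy and the highest of the class per kilobase, was at 202 ± 7.13 and 216 ± 14.7 CPM (0.095, edgeR adjusted p = 0.21), and BAG1, BAG4 and BAG5 lay between -0.14 and 0.053. BAG3 passed the test without siDEPDC1 replicate 1, its lowest siDEPDC1 library (0.14, edgeR adjusted p = 0.038). Of the HSP110 genes, HSPA4L (APG-1) rose from 52.2, 54.7 and 53.3 CPM to 65.0, 66.1, 62.4 and 60.0 CPM (0.25 ± 0.064, edgeR adjusted p = 0.0026), but was not called without both KRT5 libraries (0.25, edgeR adjusted p = 0.099). HSPA4 (285 ± 7.32 and 276 ± 10.8 CPM) and HSPH1 (189 ± 7.56 and 194 ± 7.09 CPM) overlapped between the groups and did not pass it.

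J-domain genes, which recruit HSP70 to its clients, were called in 8 of 16 tested cases, 3 lower and 5 higher, beside 34.4% of all tested genes. In the DNAJA class, DNAJA2, a cytosolic partner of HSC70, fell from 75.4, 76.0 and 72.4 CPM to 49.3, 46.3, 48.3 and 48.4 CPM (-0.64 ± 0.063, edgeR adjusted p = 4.3e-10). Both groups were tight and lay far apart. DNAJA3, the mitochondrial J-domain protein TID1, fell from 54.6, 54.7 and 48.1 CPM to 41.3, 41.9, 43.8 and 42.2 CPM (-0.32 ± 0.069, edgeR adjusted p = 0.00044). Without both KRT5 libraries it was at -0.19 and not called (edgeR adjusted p = 0.26). DNAJA1, the highest J-domain member per kilobase (107 CPM per kilobase in siCTL), was at 293 ± 8.59 and 282 ± 16.5 CPM and did not pass the test (edgeR adjusted p = 0.49).

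In the DNAJB class 3 of 7 genes rose and none fell, or 42.9% called beside 34.4% of all genes. DNAJB5 rose from 16.8, 20.2 and 17.2 CPM to 25.8, 28.1, 25.9 and 30.5 CPM (0.61 ± 0.087, edgeR adjusted p = 1.0e-06). DNAJB2, a J-domain protein that binds ubiquitin, rose from 30.2, 30.7 and 29.6 CPM to 33.8, 36.5, 35.2 and 43.5 CPM (0.31 ± 0.080, edgeR adjusted p = 0.0029). DNAJB1, the stress-inducible HSP40 and partner of inducible HSP70, rose from 263, 266 and 256 CPM to 285, 322, 309 and 313 CPM (0.23 ± 0.055, edgeR adjusted p = 0.0013). In none of the 3 did the groups overlap. DNAJB6, which suppresses aggregation, was higher in every siDEPDC1 library (169 ± 5.07 against 160 ± 1.58 CPM) without passing the test (0.081, edgeR adjusted p = 0.26), and DNAJB4, DNAJB12 and DNAJB14 lay between -0.16 and 0.013.

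Of the DNAJC genes, DNAJC7, which binds both HSP70 and HSP90, rose from 94.4, 98.8 and 102 CPM to 118, 119, 112 and 109 CPM (0.22 ± 0.059, edgeR adjusted p = 0.0037), and was not called without both KRT5 libraries (0.16, edgeR adjusted p = 0.28). DNAJC8, a nuclear protein found with splicing factors, rose from 114, 120.2 and 125 CPM to 126, 151, 142 and 134 CPM (0.21 ± 0.062, edgeR adjusted p = 0.0072). The groups did not overlap, but the nearest libraries, siCTL replicate 3 and siDEPDC1 replicate 1, were close. DNAJC8 was no longer called when siCTL replicate 1 was left out (edgeR adjusted p = 0.063) or when siDEPDC1 replicate 2 was (edgeR adjusted p = 0.054), nor without both KRT5 libraries (0.15, edgeR adjusted p = 0.31). DNAJC2, a ribosome-associated J-domain protein, was at 26.1, 24.2 and 25.9 CPM in siCTL and at 24.3, 22.4, 18.9 and 16.8 CPM in siDEPDC1 (-0.29 ± 0.094, edgeR adjusted p = 0.014). The groups overlapped, and leaving out siCTL replicate 1 (edgeR adjusted p = 0.052), siDEPDC1 replicate 3 (0.052) or siDEPDC1 replicate 4 (0.083) ended its call. DNAJC9, a histone chaperone, was the uncalled member nearest to the threshold, with 114, 115 and 124 CPM in siCTL and 107, 112, 111 and 97.3 CPM in siDEPDC1 (-0.14 ± 0.060, edgeR adjusted p = 0.067). FAM149B1, on the opposite strand, covers 24% of the annotated DNAJC9 exon bases and was at -0.13 (edgeR adjusted p = 0.11). DNAJC5, the highest of the class per kilobase in siCTL, was at 228 ± 7.81 and 212 ± 15.9 CPM (edgeR adjusted p = 0.15).

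**Figure D3:**
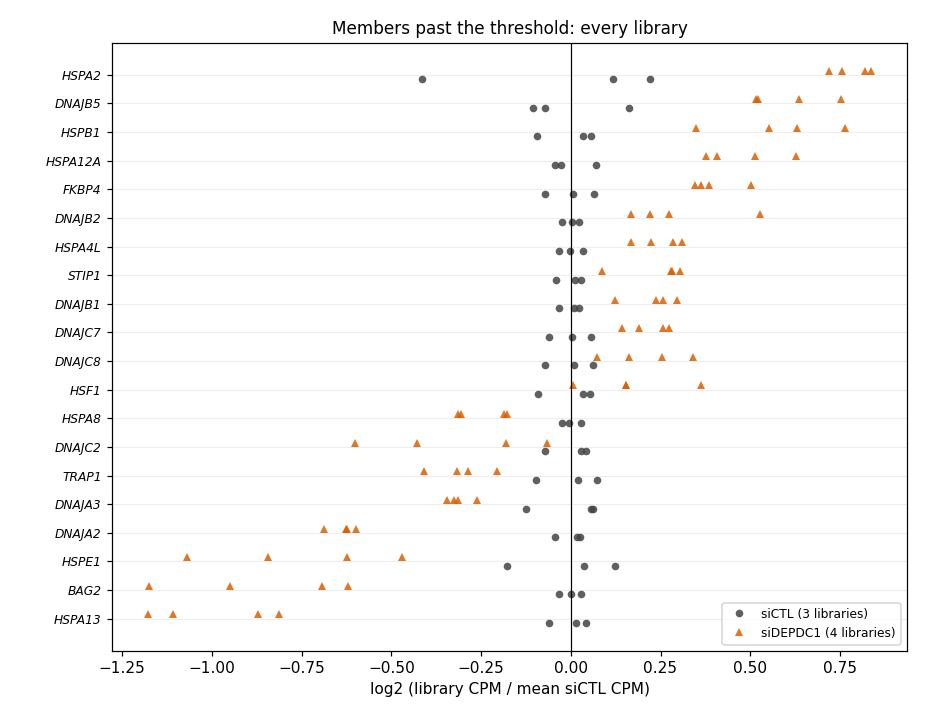
Level of each of the 20 called members in every library, as log2 of its CPM over the siCTL mean of the gene, with circles for the 3 siCTL and triangles for the 4 siDEPDC1 libraries. The groups are apart in 18 members and overlap in HSF1 and DNAJC2.

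The cytosolic HSP90 pair did not pass the test, while their co-chaperones FKBP4 and STIP1 rose. HSP90AB1 was at 2136, 2115 and 2142 CPM in siCTL and at 1907, 2091, 2122 and 1986 CPM in siDEPDC1, with overlap at the top (-0.073 ± 0.057, edgeR adjusted p = 0.35). HSP90AA1 was at 1664, 1675 and 1737 CPM and at 1639.8, 1785, 1639 and 1469 CPM (-0.051 ± 0.061, edgeR adjusted p = 0.55), and its siDEPDC1 libraries lay on both sides of siCTL. FKBP4, the immunophilin FKBP52 of steroid receptor complexes, rose from 84.3, 81.1 and 76.7 CPM to 103, 104, 114 and 105 CPM (0.40 ± 0.061, edgeR adjusted p = 2.9e-06). STIP1, the HOP protein that joins HSP70 to HSP90, rose from 304, 307 and 293 CPM to 320.3, 366, 372 and 366 CPM (0.24 ± 0.057, edgeR adjusted p = 0.0012). AHSA1, which stimulates the HSP90 ATPase, was higher in every siDEPDC1 library (95.9 ± 5.98 against 87.1 ± 1.78 CPM) but did not pass the test (0.14 ± 0.061, edgeR adjusted p = 0.077). It passed without siDEPDC1 replicate 1 and without siDEPDC1 replicate 4 (edgeR adjusted p = 0.024 and 0.038). PTGES3 (p23), the highest co-chaperone per kilobase at 88.2 CPM per kilobase, was at 300 ± 7.71 and 321 ± 21.0 CPM (0.10, edgeR adjusted p = 0.17), and passed without siDEPDC1 replicate 4 (0.14, edgeR adjusted p = 0.038). CHORDC1 passed without siDEPDC1 replicate 4 (0.20, edgeR adjusted p = 0.030, against 0.11 and 0.29 with it), and CDC37, which brings kinases to HSP90, without siCTL replicate 3 (-0.17, edgeR adjusted p = 0.032, against -0.11 and 0.14 with it). STUB1, the ubiquitin ligase CHIP, was at 85.3 ± 6.86 and 85.7 ± 7.65 CPM. JMJD8, on the opposite strand, covers 42.4% of the annotated STUB1 exon bases, so without strand the level of STUB1 is uncertain.

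The small HSP gene HSPB1 (HSP27; ENSG00000106211; chromosome 7, 76302544 to 76304295, plus strand) rose from 63.3, 64.3 and 57.9 CPM to 78.6, 90.7, 95.6 and 105 CPM. The lowest siDEPDC1 library was above the highest of siCTL, and the rise was 1.49-fold (0.58 ± 0.073, edgeR adjusted p = 1.1e-07). HSPB8, the partner of BAG3, was at only 1.31 ± 0.133 and 1.54 ± 0.653 CPM, and HSPB11, a protein of intraflagellar transport, at 28.5 ± 1.66 and 29.5 ± 1.21 CPM, and neither passed the test. The heat shock factor HSF1 was called as higher by a narrow margin, at 79.6, 78.4 and 72.0 CPM in siCTL and 77.0, 85.2, 85.3 and 98.6 CPM in siDEPDC1 (0.17 ± 0.068, edgeR adjusted p = 0.046). The groups overlapped, siDEPDC1 replicate 4 was the highest library, and 13 of 17 alternative analyses ended the call, among them every one that left out 1 library except that without siDEPDC1 replicate 1 (edgeR adjusted p = 0.056 to 0.20 in these). HSF2 was at 29.5 ± 1.51 and 30.5 ± 1.90 CPM and did not pass the test (0.053, edgeR adjusted p = 0.63).

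Although the set is named for the cytosol, 5 members are mitochondrial proteins (HSPA9, HSPD1, HSPE1, TRAP1 and DNAJA3), a grouping made after their values were seen. Of these, 3 were lower and none higher, with a median log2 fold change of -0.31, beside 17.9% lower and 16.5% higher among all tested genes. Only HSPE1 of the 3 stayed called without both KRT5 libraries. Of the 43 tested members outside the mitochondrion and the endoplasmic reticulum 4 were lower and 12 higher, or 37.2% called beside 34.4% of all genes, and the difference between the groupings was not tested. TRAP1, the mitochondrial HSP90, fell from 83.2, 80.3 and 73.9 CPM to 63.5, 59.6, 64.9 and 68.6 CPM (-0.31 ± 0.064, edgeR adjusted p = 0.00027), and was at -0.21 without both KRT5 libraries (edgeR adjusted p = 0.17). DNASE1, on the opposite strand, covers 29.3% of the annotated TRAP1 exon bases and was also lower (-0.25 ± 0.066, edgeR adjusted p = 0.0031), and without strand the reads of the pair cannot be told apart. The lid of the mitochondrial chaperonin, HSPE1 (HSP10), fell from 11.1, 9.58 and 11.8 CPM to 7.83, 6.04, 7.03 and 5.17 CPM (-0.74 ± 0.13, edgeR adjusted p = 2.8e-05), with no overlap. Its partner HSPD1 (HSP60) was at 352, 341 and 358 CPM in siCTL and 333, 346, 324 and 303 CPM in siDEPDC1, and did not pass the test (-0.10 ± 0.055, edgeR adjusted p = 0.16). In siCTL HSPE1 stood at 5.48 and HSPD1 at 82.5 CPM per kilobase. HSPE1 shares exon bases with HSPD1 and with the readthrough gene HSPE1-MOB4 (listed at 0 counts in all libraries) and has 26 pseudogene rows in the table, so its level is uncertain. With those rows added HSPE1 was at 11.5 ± 0.974 and 6.90 ± 1.28 CPM (-0.75 ± 0.13, edgeR adjusted p = 1.8e-05). The added rows held only 27 counts in siCTL and 16 in siDEPDC1. Reads lost at counting would be in no row, so the sum cannot settle the level or the fall of HSPE1. The cytosolic chaperonin subunits TCP1 (269 ± 3.84 and 278 ± 9.13 CPM) and CCT2 (227 ± 1.91 and 236 ± 9.63 CPM) did not pass the test.

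Sequence features of the members were read from reference transcripts and promoters. The 3' UTR word GATAACT, known from the fold changes of these same libraries to be frequent among genes that fell, was found in 6 of the 50 tested members searched (12%), against 7.43% of all tested genes with a searched 3' UTR. Because the word was chosen on these libraries, what follows is a description. The sites (GENCODE 29 transcripts, GRCh38; the word in capitals, 10 flanking bases in lower case) are shown for the carriers that were called, since they include the 3 largest falls of the set and also rises.
HSPA13 (chr21:14373349-14373355, minus strand): aaagagtatgGATAACTatattttctg
BAG2 (chr6:57184256-57184262, plus strand): tattttaattGATAACTagttctttgt
HSPE1 (chr2:197503370-197503376, plus strand): ataaactaatGATAACTaatgacatcc
FKBP4 (chr12:2804399-2804405, plus strand): cctcctgtcaGATAACTtacatgatta
HSPA2 site nearer the stop codon (chr14:64544541-64544547, plus strand): aaaagctaaaGATAACTccaatttatc
HSPA2 other site (chr14:64545134-64545140, plus strand): cttgtaacctGATAACTcctgggaact
Of the 6 tested carriers, HSPA13, BAG2 and HSPE1 were lower, FKBP4 and HSPA2 were higher, and HSPA9 (-0.048) did not pass the test. Of all tested genes with a searched 3' UTR, 906 carried the word, of which 494 were lower and 72 higher (62.5% called). Among all 12195 searched genes 2477 were lower and 2288 higher (39.1%). The other 5 members that fell, DNAJA2, DNAJA3, TRAP1, DNAJC2 and HSPA8, had no copy in the searched 3' UTR. Among the members that fell, its length ran from 50 bases in DNAJC2 and 92 in TRAP1 to 5643 in BAG2. A missing copy says little in the shortest. DNAJA4, the untested member, carries the word too.

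A heat shock element, the site bound by HSF1, is made of alternating GAA and TTC units. A core of 3 units, each 2 bases of any kind from the next (GAA, TTC and GAA, or its reverse complement TTC, GAA and TTC), was searched from 250 bases before to 50 after each annotated start (RefSeq, GRCh38.p14), so that overlapping matches of both forms join to a longer run. It was present for 7 of 47 members with a promoter in the table (14.9%), against 166 of 27305 genes (0.608%). The stress-inducible HSPA1A and HSPA1B had no match, and a gene without a match is not shown to lack the element. The matches are shown in capitals because they mark the members whose promoters carry the letters of this strict core.
HSP90AA1 (chr14:102087112-102087140, minus strand): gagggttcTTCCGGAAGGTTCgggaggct
HSP90AB1 upstream match (chr6:44247770-44247798, plus strand): ggagcaggTTCTGGAAGATTCatgggctc
HSP90AB1 downstream match (chr6:44247823-44247851, plus strand): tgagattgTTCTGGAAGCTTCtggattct
HSPA8 upstream match (chr11:123062346-123062374, minus strand): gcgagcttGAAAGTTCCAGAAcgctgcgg
HSPA8 downstream match (chr11:123062171-123062199, minus strand): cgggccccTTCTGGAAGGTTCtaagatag
HSPD1 (chr2:197500062-197500090, minus strand): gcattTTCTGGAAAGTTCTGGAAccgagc
CHORDC1 (chr11:90223084-90223112, minus strand): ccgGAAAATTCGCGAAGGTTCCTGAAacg
DNAJA1 (chr9:33025268-33025296, plus strand): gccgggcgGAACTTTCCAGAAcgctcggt
DNAJB6 (chr7:157336865-157336893, plus strand): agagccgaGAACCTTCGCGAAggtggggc
Of these 7 genes, HSPA8 was lower and the other 6 did not pass the test, with log2 fold changes from -0.10 (HSPD1) to 0.11 (CHORDC1) and a median of -0.054 over the 7. Of all 54 tested genes with the element 10 were lower and 11 higher (38.9%), beside 34.4% of all tested genes. Of the 12 members that rose, HSF1 and FKBP4 had no promoter in the table and the others had no match, which says only that these letters are not in those windows. A match is not evidence of binding.

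Transcript GC content differed with the direction of change over all genes, and in part among the members. The members that rose had a median GC content of 52.1%, those that fell 44.5% and those not called 44.2%, beside 52.1%, 45.9% and 49.2% over all tested genes. The members that fell were thus not below the uncalled ones, and the ranges of those that fell (34.9% to 58.2%) and rose (38.1% to 64.5%) overlapped widely. Across 10 equal bins of all tested genes by GC content, the median log2 fold change ran from -0.067 in the lowest to 0.071 in the highest. With a GC and length trend removed from each library, 12 of 51 tested members were lower and 18 higher, beside 40.5% of all genes called. The share called among the members was there further above that of all genes than without the removal. All called members but HSF1 stayed called. In that analysis HSPH1 (0.16), CHORDC1 (0.27), PTGES3 (0.14), DNAJC21 (0.18), DNAJB6 (0.14), AHSA1 (0.12) and TCP1 (0.11) passed as higher and CDC37 (-0.19), DNAJC5 (-0.16), HSPA1B (-0.14) and DNAJC9 (-0.11) as lower (edgeR adjusted p from 0.00019 to 0.048). What part GC content has in the changes was not tested further.

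**Figure D4:**
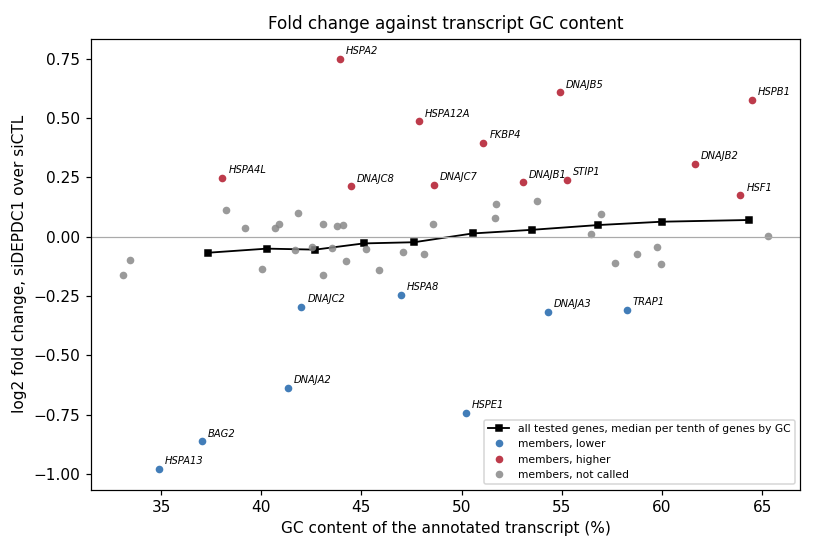
Log2 fold change (siDEPDC1 over siCTL) against the GC content of the annotated transcript, in percent, for the tested members (blue lower, red higher, grey not called). The black squares give the median of all tested genes in each bin by GC content, from -0.067 to 0.071, and the called members lie up to 0.98 away from zero.

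Other genes of the chaperone network, listed apart from the members, also went both ways. Beside the 34.4% of all tested genes, the shares called were 33.3% for TRiC, 50% for prefoldin, 38.5% for HSP90 co-chaperones, 50% for exchange factors, 40% for J-domain genes and 83.3% for mitochondrial proteases and unfoldases. Of 6 further subunits of the cytosolic chaperonin TRiC 2 were lower and none higher, with CCT6A down from 445 ± 13.1 to 320 ± 20.1 CPM (-0.47 ± 0.056, edgeR adjusted p = 2.3e-08). Prefoldin, which delivers actin and tubulin to TRiC, had 1 lower and 2 higher of 6, with VBP1 at -0.25 and PFDN4 at 0.44. PFDN4 was not called without both KRT5 libraries (0.29, edgeR adjusted p = 0.093). Among 13 further HSP90 co-chaperones 1 was lower and 4 were higher. FKBP5, the immunophilin related to FKBP4, fell from 44.8 ± 1.94 to 28.1 ± 3.06 CPM (-0.68 ± 0.078, edgeR adjusted p = 1.6e-08), whereas ST13, the HIP protein that stabilises HSP70 with bound ADP, rose from 110.1 ± 4.99 to 151 ± 4.10 CPM (0.46 ± 0.057, edgeR adjusted p = 7.0e-08). Of 4 further exchange factors 2 were lower, with the mitochondrial GRPEL2 at -0.23. Its call was lost without siCTL replicate 2 (edgeR adjusted p = 0.11) and without both KRT5 libraries (edgeR adjusted p = 0.17). Of 20 further J-domain genes 5 were lower and 3 higher, with DNAJC10, a disulfide reductase of the endoplasmic reticulum, at -0.37 and DNAJC1 at 0.54. Mitochondrial proteases and unfoldases had 3 lower and 2 higher of 6, with CLPB at -0.34 and the protease LONP1 at 0.29.

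Genes that respond to HSF1 or regulate it had 1 lower and 5 higher of 9 tested (66.7%, beside 34.4% of all genes). Their median log2 fold change was 0.23, against 0.00094 over all tested genes. The higher genes were UBB (0.26), SERPINH1 (0.23), JMJD6 (0.34), CLU (0.49) and HSBP1. HSBP1, a small protein that binds and restrains HSF1, rose from 107 ± 4.02 to 146 ± 6.63 CPM (0.45 ± 0.058, edgeR adjusted p = 1.4e-07), and HSF4, another heat shock factor, fell from 8.09 ± 0.50 to 6.26 ± 1.04 CPM (-0.37 ± 0.13, edgeR adjusted p = 0.029). The call of HSF4 was lost in 9 alternatives, among them 5 that left out 1 library (siCTL replicate 1 or 2, or siDEPDC1 replicate 2, 3 or 4; edgeR adjusted p = 0.051 to 0.13). HSPA6 and CRYAB, which are strongly heat-inducible in many cells, had 1 to 6 and 0 to 3 counts in each library and were not tested.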

How the data were processed

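Paired reads of 100 bases came from TruSeq libraries, per the labels' protocols. The authors deposited raw counts per Ensembl gene and library. STAR 2.7.9a, FastQC, DESeq2 and GRCh38 are named per the submitters' processing notes, without their roles. The counter, annotation release and strand setting were not given in the sources used here. Symbols matched 42022 of 60675 identifiers. The test was that of edgeR 4.0.16, R 4.3.3 (filterByExpr by group, TMM, robust glmQLFit, glmQLFTest, two-sided, group only), with adjustment over all 16583 tested genes at 0.05. Errors of log2 fold changes are standard errors implied by the F statistic. Levels are TMM-scaled CPM (mean ± SD), divided by GENCODE 29 exon length where genes are compared. One transcript per gene gave GC content and 3' UTR. DESeq2 1.42.0, limma-voom 3.58.1, other scalings and filters, thinning, a replicate block, a GC and length offset and leaving out libraries were alternatives, and leaving out the KRT5 libraries was added after seeing the data. The code was tested on simulated data. Members, lists and the 3' UTR word were chosen with earlier results of these data known. Named were all called members, the heat shock factors, HSPA1A and HSPA1B, the highest gene per kilobase in each class, those nearest to the threshold and, per list, the called gene with the smallest p in each direction. Other members, and the other higher genes of the HSF1 list, were named after their values were seen.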

Additional observations from a re-analysis of the deposited data

Results flagged for a closer look

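Each of 65 sets of 4 siDEPDC1 values (tested members, named genes of the other lists, DEPDC1 and the members' share of counts) was examined for 1 library far from the other 3. Only STIP1 met the mark: siDEPDC1 replicate 1 was at 320.3 CPM and the other 3 libraries between 366 and 372 CPM, so that the gap to the nearest library was 0.882 of the whole range, above Dixon's 95% critical value for 4 samples. Chance flags about 1 set in 20. Without that library the rise of STIP1 was 0.29 on the log2 scale, and it was called with and without it.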

How the results depend on the processing

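No called member changed direction in any of the 17 alternatives, and 11 of the 20 were called in all of them. HSPA2 was dropped by the filter of 50 counts in every library of a group and was called in the other 16. When 1 library was left out, 7 to 9 members were lower and 10 to 14 higher, beside 27.4% to 37.1% of all genes called. With the GC and length trend removed 12 members were lower and 18 higher. That share was further above the share of all genes (40.5%) than without the removal. With the replicate block 7 members were lower and 11 higher (28.5% of all genes called), and DNAJC2 (-0.20, edgeR adjusted p = 0.11) and HSF1 (0.11, edgeR adjusted p = 0.29) lost their calls. Same-numbered libraries did not deviate together (r = -0.085, -0.0059 and -0.058), so the numbers were not taken as pairs. Leaving out the KRT5 libraries was an alternative chosen after seeing the data, and it leaves 1 control library. Fewer members were called there in both directions, and so were fewer of all genes. The TRiC, prefoldin, other exchange factor, other J-domain and mitochondrial lists also had fewer calls there. With the replicate block, calls numbered 1 for TRiC, 0 for the other exchange factors and 3 for the mitochondrial list (28.5% of all genes called). The mitochondrial list also had 3 after thinning (31.4% of all genes called). Leaving out 1 library gave 1 to 4 calls for TRiC, 0 to 4 for the other exchange factors and 3 to 5 for the mitochondrial list. The share of all genes called was 27.4% to 37.1% there. Only uncalled members reversed. After thinning HSPA1A was at 0.040 and STUB1 at -0.000037. With no count filter DNAJB12 was at -0.0022 and STUB1 at -0.012, and with the replicate block STUB1 was at -0.043. With the GC and length trend removed HSPA9 was at 0.045, HSPA4 at 0.027, HSP90AA1 at 0.0016, DNAJB12 at -0.025, DNAJB14 at 0.12 and STUB1 at -0.11. Without the KRT5 libraries HSPB11 was at -0.041, HSF2 at -0.031 and CDC37 at 0.022. Leaving out 1 library moved HSPA1A from -0.091 to 0.023, HSPB8 from -0.092 to 0.30, HSP90AA1 from -0.094 to 0.00019, DNAJB12 from -0.021 to 0.053, DNAJB14 from -0.17 to 0.047 and STUB1 from -0.061 to 0.061. The cause of these changes was not tested. Without the filter 14.9% of all genes were called, against 34.4%. DNAJA4 had too few counts to be tested.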
